A study of Micropterus salmoides with 6 samples.

Results

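Intergenic long noncoding RNA (lncRNA) transcripts are those of the deposited lncRNA table that lie on nuclear scaffolds and overlap no annotated gene on either strand, with 60 or more counts summed over the 6 libraries. They numbered 620 of the 3399 lncRNA transcripts (18.2%). A further 527 met the position rule and fell below the count minimum, the nearest of them with 59 counts against 60 just inside it. The 620 transcripts belonged to 417 assembled genes (identifiers MSTRG.number, with the transcript as a last number). For 345 of these genes 1 transcript met the rule, while 4 genes with 10 or more held 71 transcripts. Counts of such sets of transcripts share reads and are not independent measurements. The remaining lncRNA transcripts with 60 or more counts overlapped an annotated gene in sense (1070) or only in antisense (229).

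The tissue was intestine of largemouth bass, Micropterus salmoides, acclimated at 26 °C. Controls stayed at 26 °C and the heat group was held at 34 °C, and both were sampled after 9 h. No genotype, strain or age is stated for the fish. Each library was a pool of the intestines of 3 fish from 1 parallel, with 3 pools per temperature, so the spread between pools understates that between fish. In the text, CPM are counts per 1000000 on TMM-scaled library sizes, TPM is the authors' length-scaled abundance, and each log2 fold change is heat minus control.

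Transcripts of this kind do not code for a recognised protein, and few have a known role in fish. Vertebrate examples act on neighbouring genes, on chromatin or as scaffolds, while many are short-lived by-products of transcription that the nuclear RNA surveillance machinery removes. Libraries made from total RNA also hold structural RNAs, such as ribosomal RNA, transfer RNA, the RNA of the signal recognition particle and the 7SK RNA. An unannotated copy of these can enter an assembled lncRNA catalogue. Transcripts just behind a gene on its own strand can also be an unannotated end of that gene, which these tables do not tell apart.

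The libraries held 28.8, 13.9 and 12.3 M counts (control replicates 1 to 3) and 8.24, 15.7 and 14.4 M counts (heat replicates 1 to 3). Control replicate 1, the deepest, had the lowest CPM of the 6 libraries for 286 of the 620 transcripts, against 51 to 90 for each other library. Control replicate 3 was the highest for 173 and heat replicate 1, the shallowest, for 157, against 52 to 96 for each other library. In heat replicate 1, 5.69% of the counts were annotated rRNA, against 0.134% to 1.43% in the others. Of the listed intestinal epithelium markers, 1 of 5 was found by symbol, the enterocyte fatty acid binding protein fabp2, at 899, 154 and 141 CPM at 26 °C and 182, 339 and 305 CPM at 34 °C. The 34 mucin-2-like genes summed to 14786 CPM in control replicate 1 and to 2603 to 5586 CPM in the others. Of other tissues, the 3 liver markers summed to 0.601 to 2.18 CPM and those of pancreas (2 of 4 found) to 30.2 to 123 CPM. The 9 hemoglobin genes summed to 170 to 350 CPM.

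Most intergenic transcripts were low. Their mean over the 6 libraries had a median of 2.24 CPM and ran from 0.515 to 1689 CPM. Of the 620, 109 were below 1 CPM, 399 were from 1 to 10, 85 from 10 to 100, and 27 were at 100 CPM or more. Counts were present in all 6 libraries for 434 transcripts and in 1 library only for 25. Per length, the median intergenic transcript was at 1.56, 6.08 and 5.61 TPM in control replicates 1 to 3 and at 3.74, 4.87 and 5.16 TPM in heat replicates 1 to 3. The same median over protein-coding genes with that count minimum was higher in 6 of 6 libraries, by 0.65 to 2.28 log2 units. That sets single transcripts beside whole genes, so the units differ, and the part of this in the gap was not tested. Medians of antisense-only lncRNA transcripts were lower in TPM in 6 of 6 libraries and those of sense-overlapping transcripts in 4 of 6. By CPM, not scaled to length, the order was the reverse, with medians of 2.24 for intergenic, 2.44 for sense-overlapping and 2.65 for antisense-only transcripts. These levels are a description, since the count minimum chose the members and bears on their level.

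By the lengths computed here, most transcripts were short and covered only part of their span with exons. Exonic length was computed from each transcript's count and TPM, scaled on 13 intronless mitochondrial protein genes, and it assumes that the authors' TPM used the full exonic length. Its median was 748 bases, with a range of 213 to 8084 bases. The genomic span had a median of 2942 bases and reached 50894 bases. Exons covered a median of 34.7% of the span. Only 39 transcripts (6.29%) were at least 95% exonic, as an unspliced transcript would be, against 16.2% of the sense-overlapping and 11.8% of the antisense-only class. Those classes had exonic medians of 986 and 1036 bases. The widest spans were 50894 bases in MSTRG.1870.1, 49892 bases in MSTRG.26390.1 and 45521 bases in MSTRG.24023.1, of which 2477, 1282 and 664 bases were exonic.

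**Figure D1:**
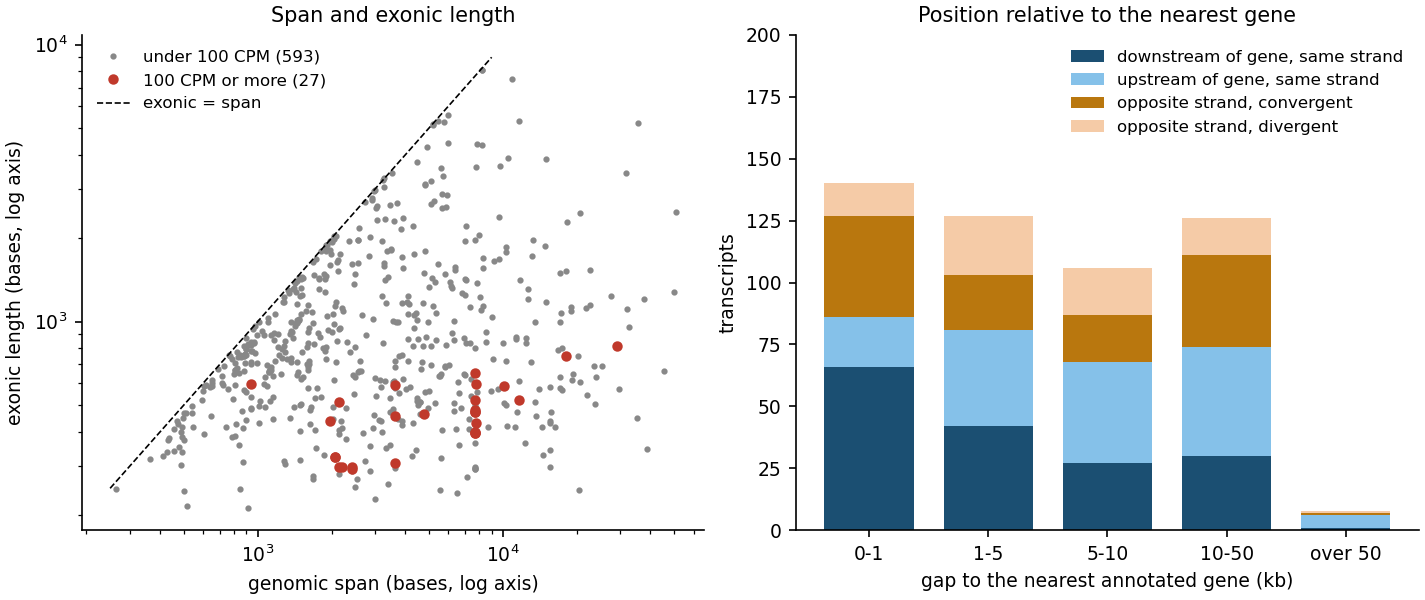
Left, exonic length against genomic span (bases, both axes logarithmic) of the 620 intergenic transcripts, with the 27 of 100 CPM or more in red and the dashed line where span and exonic length are equal. Right, number of transcripts by gap to the nearest annotated gene (kb), stacked by their position and strand relative to that gene. Transcripts of 100 CPM or more sit low in the left panel, and 140 transcripts lie within 1 kb of a gene.

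An annotated gene was present on the scaffold of 507 transcripts, and the gap to the nearest had a median of 4338 bases. It was at most 1 kb for 140 transcripts, 1 to 5 kb for 127, 5 to 10 kb for 106, 10 to 50 kb for 126 and more than 50 kb for 8. The other 113 transcripts were on 74 scaffolds that carry no annotated gene. Within 1 kb, 66 of the 140 lay downstream of the gene on its own strand, 20 upstream on that strand, 41 on the opposite strand facing the gene's end (convergent) and 13 on the opposite strand facing its start (divergent). Over all gaps the split was 166, 149, 120 and 72. The closest were MSTRG.30440.1 with a gap of 0 bases to LOC119886265, MSTRG.32291.13 at 6 bases from an annotated rRNA gene and MSTRG.32430.2 at 8 bases from the tRNA gene trnag-gcc_42. The farthest were MSTRG.892.1 at 143306 bases, MSTRG.9559.1 at 116984 bases and MSTRG.797.1 at 81859 bases.

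A handful of assembled genes held most of the signal. The 27 transcripts of 100 CPM or more came from 9 assembled genes and took 80.3% of all counts of the 620 transcripts. The 4 largest assembled genes alone took 76.2%. All 27 lay within 10 kb of an annotated gene. Their exonic length had a median of 464 bases, against 762 bases for the other 593, and 24 of the 27 were shorter than 600 bases. Exons made up a median of 8.47% of their span, against 40.2% for the others.

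The first of these, MSTRG.24927 (NW_024041373.1:7626802-7634540, minus strand, 18 transcripts), lay between polr1b, an RNA polymerase I subunit gene, and ttl, the gene of tubulin tyrosine ligase, which adds the terminal tyrosine to alpha-tubulin. Its gap to ttl was 144 bases. With its transcripts summed, it was at 3096, 6509 and 4524 CPM at 26 °C and 16606, 4907 and 5589 CPM at 34 °C. Heat replicate 1 stood far above the rest, and the remaining libraries of both groups overlapped (log2 fold change 0.94, SE 0.63, adjusted p = 0.562 by edgeR, and 0.17 to 1.24 with each library left out). Neighbouring polr1b and ttl were low, at means of 9.99 and 8.35 CPM at 26 °C and 11.2 and 6.07 CPM at 34 °C. Its transcript MSTRG.24927.19, with 297 exonic bases, was at 385, 921 and 1009 CPM at 26 °C and at 2729, 837 and 717 CPM at 34 °C. Other transcripts of the gene were patchy. MSTRG.24927.18 had 0 counts in control replicate 2 and heat replicate 2 and 21165 counts in heat replicate 1, and MSTRG.24927.12 had 0 counts in control replicate 3. MSTRG.24927.4 and MSTRG.24927.7 had log2 fold changes of 0.94 and 1.16 (SE 0.62 and 1.53).

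The second, MSTRG.13734 (NW_024040707.1:16990188-16993817, plus strand, 3 transcripts), was of similar abundance outside heat replicate 1, and its libraries lay closer together. It was at 4865, 2667 and 3947 CPM at 26 °C and 5318, 3305 and 3535 CPM at 34 °C, and the groups overlapped throughout (log2 fold change 0.08, SE 0.45, adjusted p = 0.965 by edgeR). Its single transcripts varied more. MSTRG.13734.2 was at 3654, 838 and 1301 CPM at 26 °C and 1878, 1.43 and 1173 CPM at 34 °C, and MSTRG.13734.3 was at 407, 1155 and 1527 CPM and then 2576, 2718 and 1752 CPM. The lowest library of one was the highest of the other, heat replicate 2. MSTRG.13734.1 ran from 600 to 1126 CPM over the 6 libraries. MSTRG.13734.3 also had the highest mean per length, 7537 TPM. The annotated gene beside it, LOC119905435, described as follitropin subunit beta-like, was at 0 in each library.

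The next assembled genes also had transcripts with few exonic bases. MSTRG.32685 (NW_024044233.1:9412-11839, minus strand) had transcripts of 293 to 297 exonic bases, and was at 1104, 2134 and 1011 CPM at 26 °C and 2299, 716 and 910 CPM at 34 °C (log2 fold change -0.11, SE 0.55). Its main transcripts MSTRG.32685.1 and MSTRG.32685.3 had log2 fold changes of 0.02 and -0.25 (SE 0.46 and 0.65). MSTRG.25006 and MSTRG.25007 lay on opposite strands of 1 region of NW_024041373.1, where dnajc12, the gene of an HSP40 co-chaperone, is annotated. Only part of each met the rule, 6.48% and 51.4% of their counts. The 7 intergenic transcripts of MSTRG.25006 summed to 877, 2546 and 1589 CPM at 26 °C and 6481, 933 and 1394 CPM at 34 °C, again highest in heat replicate 1. Within them MSTRG.25006.22 and MSTRG.25006.24 shared the same span and 324 exonic bases. The log2 fold change was 0.32 for the former and 1.65 for the latter, with SE of 0.75 and 1.01. MSTRG.25007.19, on the other strand, had 13393 counts in heat replicate 1 and 0 counts in each other library. An exonic length of 297 bases was shared by MSTRG.24927.19, MSTRG.32685.1 and MSTRG.25007.19, from 3 assembled genes on 2 scaffolds.

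Some assembled genes below these levels had another pattern over the libraries. MSTRG.462 (NW_024040040.1:8319008-8319976, minus strand), 71 bases from the solute carrier family 15 member 1-like gene LOC119901075, had 13 intergenic transcripts. They summed to 8.45, 481 and 551 CPM at 26 °C and 315, 203 and 291 CPM at 34 °C, with control replicate 1 far below the rest. MSTRG.33451.1 was also lowest in control replicate 1, at 6.09 CPM against 55.2 to 251 CPM in the other libraries. MSTRG.14338.1, under 100 CPM on average, with 2638 exonic bases and 642 bases from szrd1, showed the reverse, at 209 CPM in control replicate 1 and 20.5 to 32.9 CPM in the others. Its log2 fold change was -1.69 (SE 0.79), and leaving out each library gave -2.10 to -0.00. Of the 9 abundant assembled genes, 8 were highest in heat replicate 1, with MSTRG.33451 level with heat replicate 2.

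**Figure D2:**
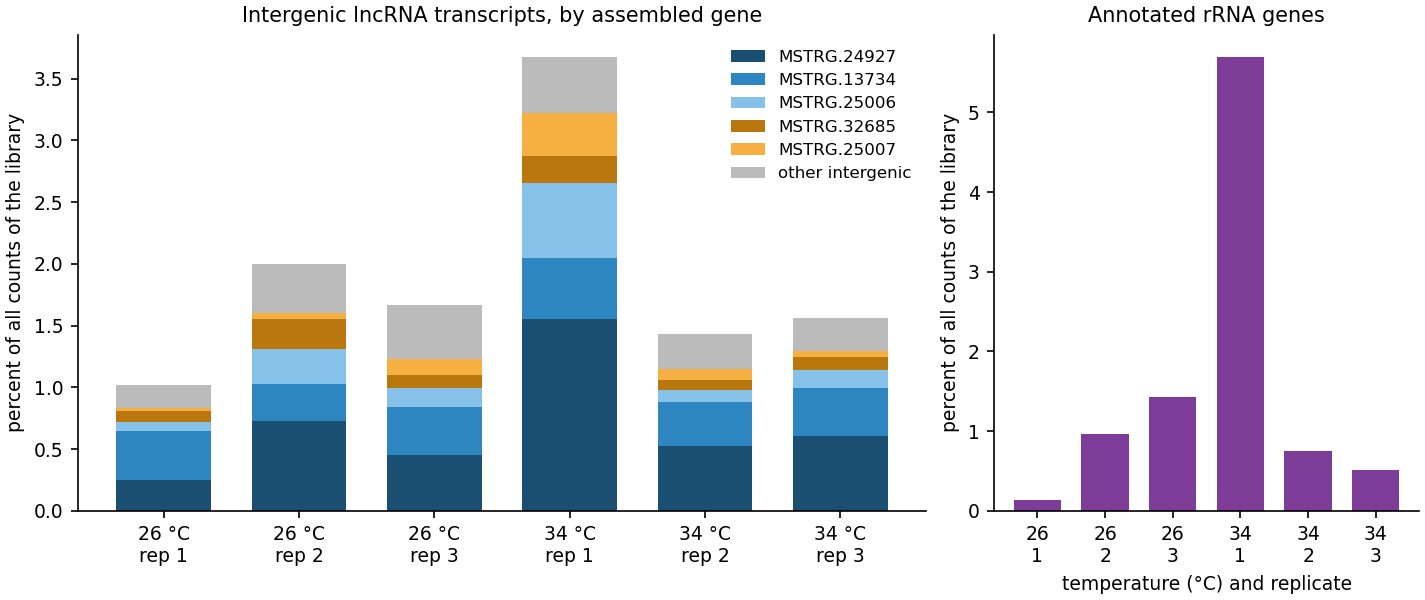
Left, percent of all counts of each library that fell on intergenic lncRNA transcripts, stacked by assembled gene (transcripts that met the rule only), for 3 control (26 °C) and 3 heat (34 °C) libraries. Right, percent of counts on annotated rRNA genes in the same libraries. Heat replicate 1 has the tallest bar in both panels, 3.67% and 5.69%.

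The share of all counts that fell on the 620 transcripts was 1.02%, 2.0% and 1.67% in the controls and 3.67%, 1.44% and 1.56% in the heat libraries. Heat replicate 1 was the highest and the other heat libraries lay inside the control range. The difference between group means was 0.659 percentage points (exact two-sided permutation test, p = 0.7, where 3 against 3 libraries allow no p below 0.1). It was -0.066 without heat replicate 1 and -0.047 without the transcripts of 100 CPM or more. Annotated rRNA moved with the same library, at 0.134%, 0.968% and 1.43% in the controls and 5.69%, 0.750% and 0.506% after heat. As a share of counts outside mitochondrial and rRNA features, the difference was 0.779 percentage points (exact permutation test, p = 0.7), with heat replicate 1 at 4.24%. The part of rRNA in the transcripts' own counts was not tested.

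Few of the transcripts lay near an annotated structural RNA gene. Within 10 kb of such a gene lay 10 transcripts, 5 beside rRNA, 4 beside tRNA and 1 beside snRNA genes. Of the abundant ones these were MSTRG.161.45 (NW_024040040.1:371721-383373) and MSTRG.166.28 (NW_024040040.1:409462-438627), at 9431 and 1240 bases from annotated ribosomal RNA genes. MSTRG.166.28 was at 4.25, 96.3 and 90.3 CPM at 26 °C and at 368, 59.1 and 58.8 CPM at 34 °C, and MSTRG.161.45 at 4.93, 74.7 and 81.8 CPM and then at 397, 50.4 and 64.2 CPM. Both were lowest in control replicate 1 and highest in heat replicate 1, the libraries with the least and the most annotated rRNA. The identity of the larger loci was not analysed here, since no genome sequence was used.

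Several abundant loci were mirrored on the other strand. There were 11 overlapping pairs of intergenic assembled genes on opposite strands, involving 21 genes. The lesser gene of a pair had 0.317% to 57.8% of the counts of the greater, with a median of 11.5%. MSTRG.24928, the mirror of MSTRG.24927, had 2.05% of its counts, and was at 38.5, 67.3 and 48.1 CPM at 26 °C and 819, 97.3 and 20.8 CPM at 34 °C. No source used here states the strand setting of the counting, so the reads of such partners cannot be told apart.

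Single transcripts of an assembled gene varied more between replicates than their sum. A count of 0 in 1 library beside 100 or more in another was seen for 73 transcripts, 69 of them in assembled genes with several transcripts. With counts summed per assembled gene it was seen for 8 genes. For transcripts of assembled genes with 2 or more intergenic transcripts, the median within-group coefficient of variation was 83.5%. It was 53.9% for the same genes summed and 55.4% for transcripts alone in their gene. The coefficient of a sum cannot exceed the mean-weighted average of those of its parts. A lower value for the summed genes was therefore largely set in advance.

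After 9 h at 34 °C no intergenic transcript passed the test. Of the 620, 511 passed the count filter and were tested, and 0 had an adjusted p under 0.05 (edgeR quasi-likelihood test, Benjamini-Hochberg over all 1734 lncRNA transcripts tested, smallest adjusted p = 0.111). The background is 0.0% of all lncRNA transcripts and 0.984% of 20326 genes. With p adjusted over genes and lncRNA transcripts together, 2 passed, MSTRG.31038.9 (adjusted p = 0.0405) and MSTRG.31969.1 (adjusted p = 0.039), both lower after heat, against a background of 0.231%. In this tissue RNA fewer cells of a type and less RNA per cell cannot be told apart. At an unadjusted p under 0.05, 50 were higher and 43 lower, 18.2% of those tested. The share was 14.5% of all lncRNA transcripts (9.57% higher and 4.9% lower) and 16.6% of genes. Summed per assembled gene, 71 of 391 had such a p (18.2% against 14.8%) and 0 passed after adjustment (smallest adjusted p = 0.0982 by edgeR). All heat libraries lay above all controls for 75 transcripts and below them for 38, 22.1% of those tested. This was above the 17.7% of all lncRNA transcripts and below the 25.8% of genes. By direction the lncRNA background was 13.3% higher and 4.44% lower, and that of genes 11.5% higher and 14.4% lower. Over both directions the shares of intergenic transcripts were above those of the other 1223 lncRNA transcripts tested, 12.9% by unadjusted p and 15.9% with no overlap. Of those 1223, 116 were higher and 42 lower by unadjusted p, and 155 and 39 with no overlap. Without MSTRG.31038, 490 intergenic transcripts were left, of which 27 were lower by unadjusted p and 23 with no overlap. Over both directions their shares were 15.7% and 20.0%. These differences were not tested.

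The number of calls depended on the model and on single libraries. DESeq2 called 58 intergenic transcripts, 31 higher and 27 lower, from 45 assembled genes, 10.1% of the 576 it tested against 6.4% of all lncRNA transcripts. Of its 58 calls 13 were in MSTRG.31038. The limma test on log2(TPM + 1) called 8 of 620 (1.29%), against a background of 0.978%. Without control replicate 1, edgeR called 22 of 561 (3.92%), 3 higher and 19 lower, against a background of 2.16%. Summed per assembled gene and without that library, 26 of 409 passed (6.36%), 7 higher and 19 lower, against 4.69% of all assembled lncRNA genes. For single transcripts the edgeR test called 1 without control replicate 2 and 2 without heat replicate 2, and 0 without each of the other 3 libraries. The calls of DESeq2 and those of edgeR without control replicate 1 had 13 transcripts in common, and 3 were also among those of limma: MSTRG.31038.9, MSTRG.31038.24 and MSTRG.31969.1.

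Log2 fold changes of the intergenic transcripts lay on both sides of 0. Their median log2 fold change was 0.07, with 273 above 0 and 238 below, against 0.18 for all lncRNA transcripts, 0.21 for the other lncRNA transcripts and -0.12 for genes. The median was 0.09 with RLE and with upper-quartile scaling. It was below 0 with the lncRNA table fitted alone (-0.23), without control replicate 1 (-0.15), without heat replicate 1 (-0.10) and with no count filter (-0.02). An absolute log2 fold change over 2 was found for 16.6% of intergenic transcripts, 11.0% of all lncRNA transcripts and 2.99% of genes. In assembled genes with 2 or more intergenic transcripts the share was 28.3%, against 9.27% where 1 transcript met the rule. These values set single transcripts beside whole genes, so the units differ. Summed per assembled gene, it was 9.97% of 391 with intergenic transcripts against 7.53% of all 1354 assembled lncRNA genes tested. By level, 27 of 77 tested transcripts of 10 to 100 CPM had an unadjusted p under 0.05. These were 11 of the 13 from MSTRG.31038 and 16 of the 64 others. Of the 25 tested at 100 CPM or more 0 had such a p, although 18 lay above a log2 fold change of 0. Of the 57 below 1 CPM, 2 had such a p. Over all levels it was 14.5% of all lncRNA transcripts, and no background by level is given.

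**Figure D3:**
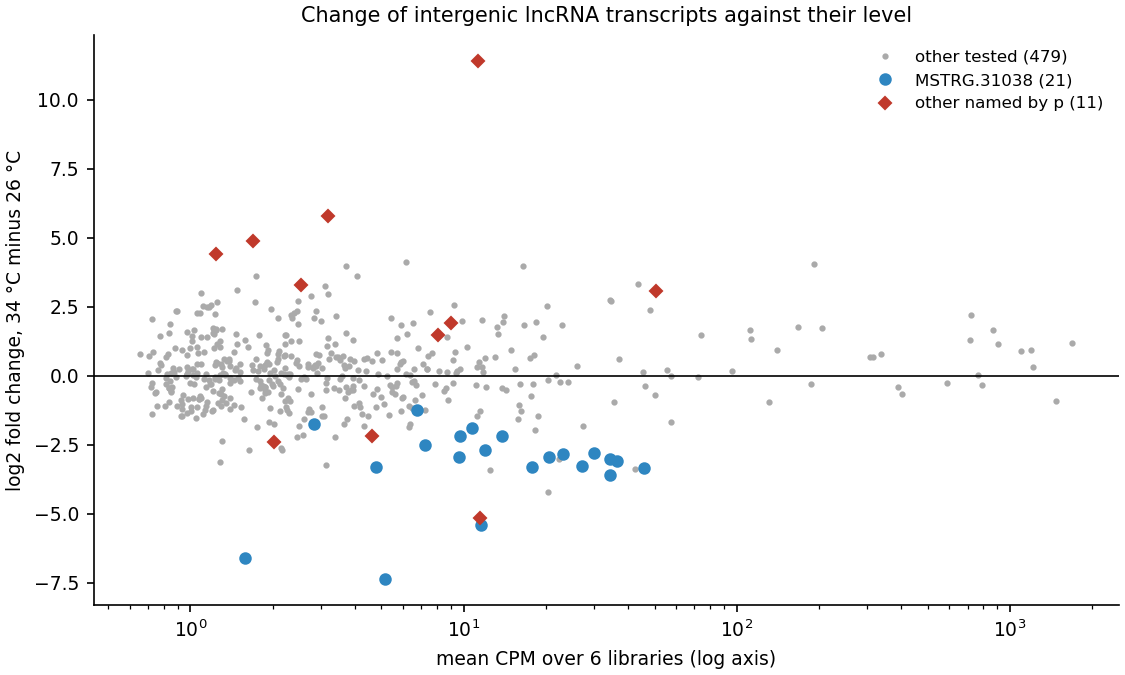
Log2 fold change (34 °C minus 26 °C) against mean CPM over 6 libraries (logarithmic axis) for the 511 tested intergenic transcripts. Blue points are the 21 tested transcripts of MSTRG.31038, all below 0, and red diamonds are the other 11 transcripts named by their p.

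The set of lower transcripts was led by MSTRG.31038 (NW_024043372.1:18326954-18350981, plus strand), with 26 transcripts of 217 to 805 exonic bases. Summed over the assembled gene it was at 627, 495 and 860 CPM at 26 °C and at 13.0, 151 and 83.0 CPM at 34 °C. Each control was above each heat library (log2 fold change -3.0, SE 0.77, adjusted p = 0.133 by edgeR over assembled genes), and leaving out each library gave -3.78 to -2.48. All 21 of its tested transcripts had a log2 fold change below 0, from -7.38 to -1.25, and 16 had an unadjusted p under 0.05. They share reads, so these are not separate observations. MSTRG.31038.24, with 752 exonic bases in a span of 20216, was at 81.3, 56.0 and 53.9 CPM at 26 °C and 1.17, 9.46 and 4.87 CPM at 34 °C (log2 fold change -3.59, SE 0.63, adjusted p = 0.112 by edgeR). Its log2 fold change was -4.35 without heat replicate 2 and -3.13 without heat replicate 1. MSTRG.31038.37 was at 49.7, 42.4 and 91.8 CPM and then at 1.43, 13.9 and 6.86 CPM (log2 fold change -3.02, with -3.84 without heat replicate 2 and -2.55 without heat replicate 1). MSTRG.31038.9 had 31, 85 and 32 counts in the controls and 0, 1 and 0 counts after heat. For MSTRG.31038.20 and MSTRG.31038.30 the log2 fold changes were -2.93 and -2.82. They were -3.56 and -3.29 without heat replicate 2, and -2.44 and -2.33 without heat replicate 1.

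The annotated genes around MSTRG.31038 differed in their values. The gene 628 bases downstream on the same strand, LOC119885663, is annotated as an uncharacterised lncRNA, and was at 5.79, 4.26 and 6.26 CPM at 26 °C and at 0, 0.95 and 0.577 CPM at 34 °C. Its groups did not overlap either (log2 fold change -3.26, SE 0.76, adjusted p = 0.090 by edgeR). On that side the next gene is errfi1a, which encodes a feedback inhibitor of EGF receptor signalling, 4770 bases away on the opposite strand. It was at 31.2 ± 8.14 CPM at 26 °C and 19.3 ± 6.72 CPM at 34 °C (SD, n = 3, log2 fold change -0.69, adjusted p = 0.35 by edgeR). On the other side mrps16, a mitochondrial ribosomal protein gene 19020 bases away, had a log2 fold change of -0.78 (adjusted p = 0.483 by edgeR). Heat libraries were also lower in summed muscle markers. Those of smooth muscle (2 of 3 found, acta2 and myh11a) were at 4116 to 9413 CPM at 26 °C and 3479 to 3972 CPM at 34 °C, and the 3 of striated muscle, of which 1 was at 0, at 79.4 to 178 and 36.6 to 44.6 CPM. Their part in the lower levels of MSTRG.31038 was not tested.

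Lower transcripts outside MSTRG.31038 had fewer or no partners in their assembled gene. MSTRG.31969.1 (NW_024043372.1:39384681-39386129, minus strand, 1156 exonic bases) was at 36.6, 5.67 and 24.8 CPM at 26 °C and 1.17, 0.357 and 0.513 CPM at 34 °C. Its lowest control was well above its highest heat library (log2 fold change -5.14, SE 0.81, adjusted p = 0.111 by edgeR), and leaving out each library gave -5.64 to -4.59. The nearest gene, LOC119885399, described as acidic mammalian chitinase-like, lay 20336 bases away with a log2 fold change of -0.73 (adjusted p = 0.702 by edgeR). MSTRG.31140.1, 41 bases from the end of tkta on the opposite strand, was at 4.42, 3.67 and 2.14 CPM at 26 °C and 0.390, 0.714 and 0.770 CPM at 34 °C (log2 fold change -2.40, SE 0.52). The transketolase gene tkta itself had means of 0 CPM in both groups. MSTRG.257.2, with the longest exonic sequence and chosen after its values were seen, was at 2.75, 14.6 and 51.7 CPM and then at 0.390, 3.39 and 2.37 CPM, and its groups overlapped. MSTRG.9559.1, among the 3 farthest from any gene, was at 3.35, 9.35 and 10.05 CPM and then at 2.08, 1.90 and 1.03 CPM (log2 fold change -2.19, SE 0.53).

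**Figure D4:**
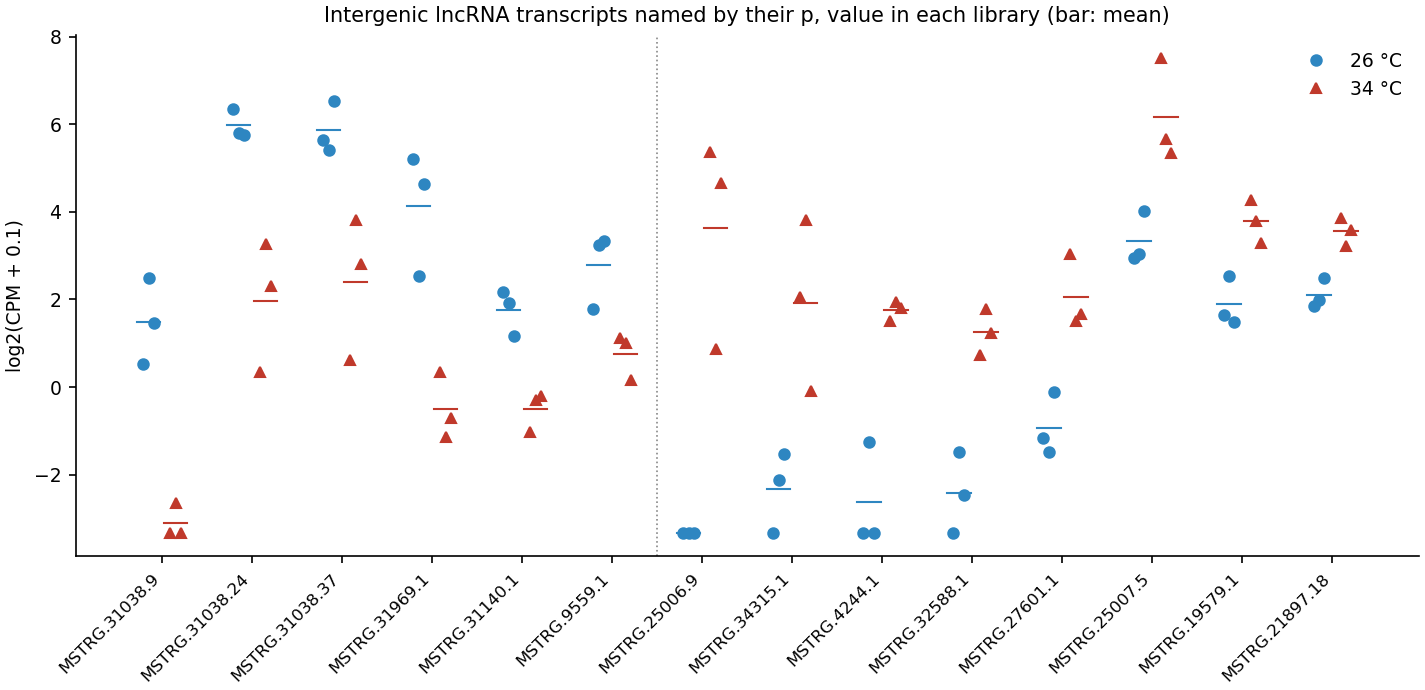
Level of 14 intergenic transcripts in each library as log2(CPM + 0.1), with controls (26 °C) as blue circles, heat libraries (34 °C) as red triangles and horizontal bars at the means. Left of the dotted line are 6 lower and right of it 8 higher transcripts. The groups do not overlap, which the rule that chose these transcripts required.

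Among higher transcripts, 2 lay in the crowded region of MSTRG.25006 and MSTRG.25007. MSTRG.25006.9 had 0 counts in each control and 317, 29 and 390 counts after heat (adjusted p = 0.112 by edgeR). Its heat mean was 412-fold above a floor of 3 counts over the controls, a floor that does not cover the spread between libraries. That ratio was 265-fold without heat replicate 1. Most of these counts were in heat replicates 1 and 3, and heat replicate 2 was at 1.72 CPM. The whole assembled gene, by contrast, was at 17377, 23953 and 33341 CPM at 26 °C and 82589, 16783 and 29765 CPM at 34 °C (log2 fold change 0.79, SE 0.76, adjusted p = 0.691 by edgeR). MSTRG.25007.5 was at 7.64, 8.12 and 16.2 CPM and then at 181, 50.5 and 40.2 CPM (log2 fold change 3.09, SE 0.65, and 2.1 without heat replicate 1), where the whole assembled gene had a log2 fold change of 1.07 and an edgeR adjusted p of 0.509. Both were highest in heat replicate 1.

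The other 6 of the 8 higher transcripts were low. MSTRG.34315.1 (NW_024044348.1:2855000-2860186, minus strand) had 5186 exonic bases in a span of 5187, with 0, 2 and 3 counts in the controls and 31, 233 and 13 counts after heat (log2 fold change 5.77, SE 1.3, adjusted p = 0.113 by edgeR). The log2 fold change was 4.32 without heat replicate 2, 5.04 without control replicate 1 and 6.69 without control replicate 3. It lay 16951 bases from cebpg and 29064 bases from cebpa, genes of C/EBP transcription factors of the bZIP class. These were at 71.6 ± 16.9 and 161 ± 12.9 CPM at 26 °C and 182 ± 33.5 and 529 ± 110 CPM at 34 °C (SD, n = 3, edgeR adjusted p of 0.0797 and 0.0514). MSTRG.19579.1, with 3355 exonic bases, was at 3.00, 5.67 and 2.72 CPM and then at 19.2, 13.7 and 9.62 CPM (log2 fold change 1.90, SE 0.42, adjusted p = 0.112 by edgeR). It lay 7895 bases from elovl6l, a fatty acid elongase gene on the opposite strand, whose log2 fold change was 3.11 (adjusted p = 0.167 by edgeR) at means of 0.138 and 1.15 CPM. The whole assembled gene of MSTRG.19579.1 had a log2 fold change of 1.04 and an edgeR adjusted p of 0.344.

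Of these low transcripts, MSTRG.34315.1, MSTRG.4244.1 and MSTRG.32588.1 had few or no control counts. MSTRG.27601.1 was at 0.343, 0.258 and 0.823 CPM at 26 °C and 8.05, 2.74 and 3.08 CPM at 34 °C (log2 fold change 3.29, SE 0.68, with 2.65 without heat replicate 1 and 3.92 without control replicate 3). Its nearest gene mtfmt, the mitochondrial methionyl-tRNA formyltransferase gene, was at 7.43 and 7.40 CPM on average. MSTRG.4244.1 had 0, 5 and 0 counts in the controls and 21, 63 and 53 counts after heat, and MSTRG.32588.1 had 0, 4 and 1 counts and then 12, 56 and 35 counts. The edgeR adjusted p was 0.112 for both. For MSTRG.32588.1 the log2 fold change was 4.41, where its whole assembled gene had 1.25 and an edgeR adjusted p of 0.179. LOC119887981, 693 bases from MSTRG.32588.1, was at means of 7.86 and 19.9 CPM (log2 fold change 1.34, adjusted p = 0.092 by edgeR). MSTRG.21897.18 was at 3.52, 3.87 and 5.52 CPM and then at 14.4, 9.28 and 11.9 CPM (log2 fold change 1.46, SE 0.34). MSTRG.17553.1 and MSTRG.8571.1 were chosen after their values were seen. MSTRG.17553.1, 70 bases from tmem251, was at 1.12, 6.96 and 5.85 CPM and then at 27.4, 13.98 and 14.6 CPM (log2 fold change 2.01, SE 0.64, adjusted p = 0.207 by edgeR, against 1.42 for tmem251). MSTRG.8571.1, 161 bases behind jak3, a Janus kinase gene of cytokine signalling, was at 1.80, 0.903 and 0.412 CPM and then at 5.46, 4.16 and 4.30 CPM, with no overlap. It had a log2 fold change of 2.11 (adjusted p = 0.135 by edgeR), against 0.42 for jak3. The widest transcript, MSTRG.1870.1, was at 5.02, 12.6 and 14.7 CPM and then at 30.5, 31.0 and 23.3 CPM, with no overlap (log2 fold change 1.40, SE 0.41, adjusted p = 0.168 by edgeR).

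Over the 16 transcripts named by their p, adjusted p ran from 0.111 to 0.121. They were chosen for small p and groups that do not overlap in the same counts, so other tests of these counts are no further support.

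The intergenic transcripts had 322 distinct nearest genes, 272 of them protein coding and 35 annotated lncRNA genes. Of the 239 tested, 2 passed (edgeR adjusted p under 0.05 over all genes), 0.837%, near the background of 0.984%. The zinc finger gene znf395b fell from 16.8 ± 5.98 to 1.97 ± 0.923 CPM (SD, n = 3, log2 fold change -3.05, SE 0.47, adjusted p = 0.0368 by edgeR). MSTRG.16475.1, 1963 bases away on the same strand, was at 81.0, 25.4 and 34.6 CPM at 26 °C and 17.9, 25.9 and 28.9 CPM at 34 °C. Its groups overlapped, and control replicate 1 was the highest (log2 fold change -0.95, SE 0.45, adjusted p = 0.386 by edgeR). The pleckstrin homology domain gene plekha6 rose from 66.5 ± 11.3 to 295 ± 80.1 CPM (adjusted p = 0.0358 by edgeR). MSTRG.32057.3, 33189 bases from it, was at 1.37, 6.06 and 4.78 CPM and then at 0.520, 1.61 and 0.385 CPM (log2 fold change -2.22, SE 0.75, adjusted p = 0.23 by edgeR). The number of nearest genes past the threshold was 18 without control replicate 1 and 0 without each other library. Without control replicate 1, calls among all lncRNA transcripts also rose, from 0 to 45 of 2085 tested. No share of all genes is given for that fit, so the 18 cannot be read as particular to these neighbours.

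**Figure D5:**
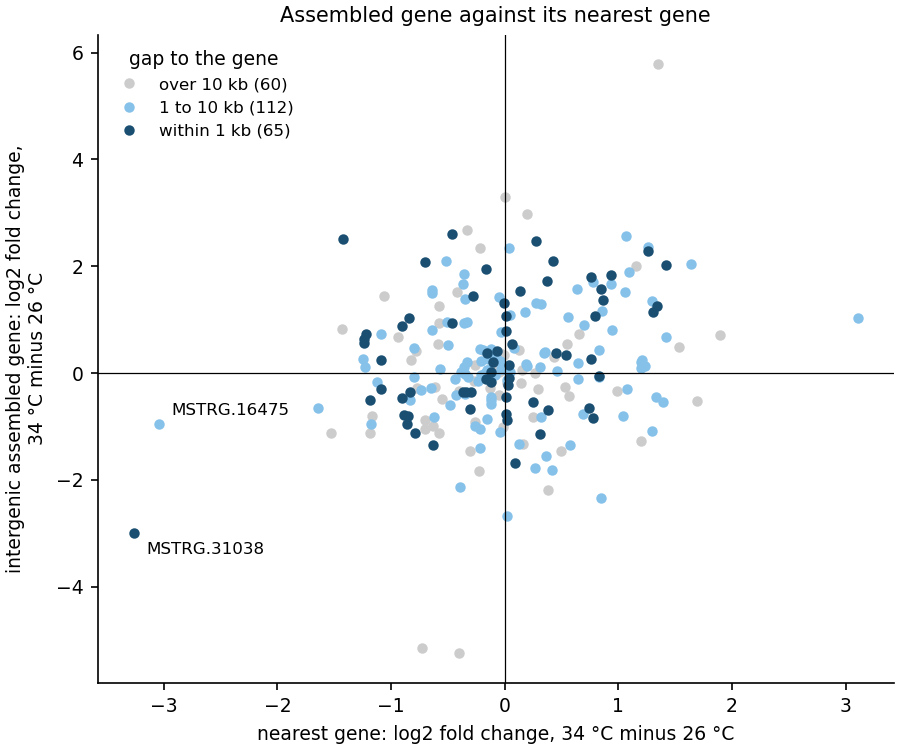
Log2 fold change (34 °C minus 26 °C) of 237 assembled genes with intergenic transcripts (vertical axis) against that of their nearest annotated gene (horizontal axis). Colour gives the gap between them. Each assembled gene is the sum of all its lncRNA transcripts, also any that overlap an annotated gene. Points scatter around 0 on both axes, with MSTRG.31038 at the lower left.

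Across 237 assembled genes whose nearest gene was also tested, the log2 fold changes of both correlated weakly (Pearson r = 0.24, Spearman rho = 0.18), and 130 (54.9%) had the same sign. This is a description, since all points share the same 6 libraries. Each assembled gene was fitted with all its lncRNA transcripts, also those that overlap an annotated gene. Intergenic transcripts held 6.48% of the counts of MSTRG.25006, 51.4% of those of MSTRG.25007 and 100% of those of MSTRG.24927. How far overlapping transcripts bear on the correlation was not tested. Within 1 kb the correlation was 0.38 (rho 0.27, 65 pairs), and 0.25 (rho 0.24) without MSTRG.31038. For assembled genes within 1 kb downstream on the strand of their neighbour it was 0.45 (rho 0.43, 33 pairs). It was 0.70 (rho 0.54, 15 pairs) for those within 1 kb upstream on that strand, and -0.02 (rho 0.06, 14 pairs) for convergent ones within 1 kb. Of the 15 upstream pairs, 8 (53.3%) had the same sign. MSTRG.31038 was among these 15, with both log2 fold changes far below 0. How far the value of 0.70 rests on that pair was not tested.

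Genes of nuclear RNA surveillance and 3′ end processing, which act on noncoding transcripts, gave no call. The list held the nuclear exosome with its adaptors and the cleavage, polyadenylation and Integrator factors. Of 42 listed, 39 were found and tested and 0 passed (edgeR adjusted p under 0.05 over all genes). At an unadjusted p under 0.05, 3 were higher and 1 lower (10.3% against 16.6% of all genes), with a median log2 fold change of 0.10 against -0.12.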

How the data were processed

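Both deposited tables, for genes and for lncRNA transcripts, hold counts and TPM for each library, per the file headers. HISAT2 2.1.0, StringTie 1.3.3 and DESeq appear in the submitters' processing notes with no role, and no source used here states the build. Positions are those of the deposited tables. A RefSeq gene table (assembly ASM1485139v1) gave biotypes for 33187 of 35854 identifiers and no coordinates, and 2656 numbered tRNA copies were recognised by symbol. Assembled genes, whose counts equal their summed lncRNA transcripts in all 2488 cases, were left out of the genes. Counts were fitted with edgeR 4.0.16 (R 4.3.3, TMM, filterByExpr with a minimum count of 10 and total of 15), genes and lncRNA transcripts in 1 joint fit without a replicate term. The script was tested on simulated data. Libraries hold 8.24 to 28.8 M counts. Alternatives were DESeq2 1.42.0, limma 3.58.1 on log2(TPM + 1) (mean TPM of at least 0.5), other scalings, filters and membership rules, and each library left out. The sum per assembled gene was chosen after seeing the data. Transcripts named are the 12 of highest mean CPM, the 8 per direction of smallest p with no overlap and at least 1 CPM, the 3 longest, closest and farthest, abundant ones beside structural RNA genes, and those near a gene past the threshold, with their nearest genes. MSTRG.14338.1, MSTRG.17553.1, MSTRG.8571.1, MSTRG.257.2, MSTRG.33451.1, MSTRG.25007.19, MSTRG.32057.3, polr1b, cebpa, errfi1a and mrps16 were named after their values were seen. The 620 transcripts, lists and tests were chosen with earlier results of these data known.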

Additional observations from a re-analysis of the deposited data

How the results depend on the processing

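The count of intergenic transcripts past the threshold stayed at 0 with RLE and upper-quartile scaling, without a count filter, with the lncRNA table alone and summed per assembled gene. It was 58 with DESeq2 (156 of all lncRNA transcripts), 8 with limma on log2(TPM + 1) (31) and 2 with p adjusted over genes and lncRNA transcripts together (4). Leaving out each library gave 0 to 22 intergenic and 0 to 45 lncRNA transcripts, and -0.15 to 0.28 for the median log2 fold change, which was 0.16 with the replicate block and -0.23 with the lncRNA table alone. The rule held for 353 transcripts with no annotated gene of their scaffold within 5 kb, 231 with 300 counts and 1147 with no count minimum. The 353 include the 113 on scaffolds that carry no annotated gene, for which no gap could be measured. The difference in the share of counts turned to -0.047 percentage points without transcripts of 100 CPM or more, and ran from -0.066 to 1.05 with a library left out. For nearest genes past the threshold the count was 1 within 5 kb and 0 to 18 with a library left out, the latter without a background share of genes. With the replicate block 0 lncRNA transcripts, 0 intergenic ones and 0 nearest genes passed. Deviations of log2 CPM from the group means correlated at -0.011, -0.012 and 0.040 between same-numbered libraries. Between differently numbered ones they correlated at -0.039 to 0.039. No pairing by number was seen, which so few libraries cannot exclude, and none is stated. The causes were not tested. Low counts and reads split among overlapping transcripts can limit precision, and their part in these differences was not tested.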
